A study of Homo sapiens with 12 samples.

Results

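The 6 poly-A RNA libraries of a transfection experiment in HEK293T cells form 2 sets, and the second set was compared with the first plasmid by plasmid. HEK293T is an established human embryonic kidney line that carries the large T antigen of a simian virus. Set 1 holds the libraries numbered 1 to 3 in the sample titles and set 2 those numbered 4 to 6, 3 of each, out of 12 libraries in the series, the other 6 being of small RNA. Each set has 1 library of cells given a GFP reporter plasmid (GFP), 1 given that reporter with a BCL2L11 trigger and 1 given it with a TRIM9 trigger, where a trigger is an RNA stretch that pairs with a microRNA and promotes its decay. In both sets 2 µg of plasmid had been transfected and RNA was extracted 48 h later, then enriched with oligo-dT. The cells are a single line, and every library, the GFP control included, comes from transfected cells.

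The labels number the libraries and say nothing of a date, a sequencing run or a batch. They name polyethylenimine and lipofectamine as transfection reagents without saying which library received which. Set, reagent, culture, library preparation and sequencing run therefore cannot be told apart. Each plasmid has 1 library per set, so whether the difference between sets depended on the plasmid could not be tested. The p-values below measure the spread of the difference over the 3 plasmids.

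A sequencing library does not sample all messenger RNAs alike. Poly-A selection with oligo-dT captures RNA by its 3′ tail, so how much of a long RNA is seen depends on how intact it is and on how it is fragmented and selected for size. FPKM, the unit used here, divides the fragments on a transcript by its length and by the library's total, and a gene's level is the sum over its transcripts. Most messenger RNAs of ribosomal, respiratory chain and proteasome subunits are short and abundant, whereas those of zinc finger, chromosome-segregation and chromatin proteins are often long.

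Depth was 4.48, 4.96 and 5.34 aligned gigabases in the GFP, BCL2L11 and TRIM9 libraries of set 1 and 4.11, 4.95 and 4.89 in those of set 2, so the sets overlapped in depth. The GFP library of set 1 stood apart in part: it had 83584 transcripts above 0, against 99690 to 110534 in the other libraries, and the lowest share of bases in annotated transcripts, 78.8%. The counts of all genes and of some lists are given below with and without its pair. None of the 15 pairs of libraries held identical values. BCL2L11 had 11484 FPKM in the BCL2L11 library of set 1 and 11275 in that of set 2, and 3.95 to 6.32 in the other 4, as the labels say. TRIM9 likewise had 5297 and 3948 FPKM in its own libraries and 1.21 to 2.92 elsewhere. Neither trigger gene was called between sets (log2 difference 0.23, SE 0.16, adjusted p = 0.314 in limma for BCL2L11, and 0.22, SE 0.23, adjusted p = 0.481 for TRIM9).

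Of 12 HEK293T markers 11 were measured above the filter, with summed levels of 549 to 702 FPKM in set 1 and 625 to 686 in set 2. Markers of other cell types were low. Summed over 9 fibroblast genes they reached 1.72 to 7.86 FPKM in set 1 and 2.3 to 2.7 in set 2, with DCN, FAP and THY1 below 0.1 FPKM in every library. The 9 epithelial genes summed to 1.9 to 2.48 and 1.91 to 2.78 FPKM, with KRT5, KRT7 and KRT19 at 0. The 10 blood cell genes summed to 12.9 to 16.0 FPKM in set 1 and 7.45 to 8.26 in set 2, with PTPRC, CD3E and HBB at 0. Of these, the alpha globin genes HBA1 and HBA2, near-identical copies whose reads the counting could split, were lower in set 2 (log2 differences -0.98 and -0.75, adjusted p = 0.0126 and 0.0192 in limma). Their transcripts are short, at 577 and 576 nt. Neither was called after the centring on length classes described below (-0.69 and -0.47, adjusted p = 0.0524 and 0.122 in limma).

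In set 2, genes with long transcripts were higher and genes with short transcripts were lower, in all 3 plasmid pairs. The genes that rose included IRS4, IGF2BP3, DICER1, TOP2A and many zinc finger genes, and those that fell included many ribosomal protein, respiratory chain and proteasome genes. Levels were compared as log2 of FPKM plus 1, fitted over the 6 libraries in limma with plasmid and set as terms and Benjamini-Hochberg adjustment over all genes tested, with a threshold of 0.05. Of 15183 genes tested, 3421 (22.5%) were higher in set 2 and 1570 (10.3%) were lower. A 2-fold difference on this scale was reached by 790 of the higher and 327 of the lower genes. The sign was the same in the 3 pairs for 61.9% of all genes tested. It was so for all 4991 called genes, which the test nearly requires, since it rests on those 3 differences. In 4819 genes (31.7%) every set 2 library was above every set 1 library, and in 2770 (18.2%) every one was below. A test of single transcripts called 0 of 33099 (0.0%), with 7673 at an unadjusted p under 0.05 and a lowest adjusted p of 0.13 in limma.

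The split into higher and lower depended on the scaling. Higher genes made up 68.5% of calls on FPKM as deposited, 50.4% after TMM rescaling, 37.8% after centring each library on its median, 55.2% after quantile normalisation and 88.9% on TPM. These scalings moved the median difference of all genes from 0.06 by -0.12, -0.21, -0.08 and 0.30. Without the GFP pair 4438 genes were higher and 3786 lower, without the BCL2L11 pair 1220 and 475, and without the TRIM9 pair 1118 and 389. With no filter on low values 0 of 39154 genes were called in limma, with 8361 at an unadjusted p under 0.05.

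Each gene was next placed by the length and exon number of its transcript of highest mean FPKM. The median log2 difference was -0.44 for 1638 genes of 500 to 1000 nt, -0.26 for 2980 genes of 1000 to 2000 nt, 0.05 for 5086 genes of 2000 to 4000 nt, 0.45 for 3796 genes of 4000 to 8000 nt and 0.63 for 902 genes of 8000 nt and over. Of the longest class 536 genes (59.4%) were higher and 4 (0.4%) lower, and of the class from 500 to 1000 nt 110 (6.7%) were higher and 546 (33.3%) lower. The 781 genes under 500 nt, with a median of -0.30, did not continue the gradient. The longest class stood 1.07 above the class of 500 to 1000 nt in the fit, and by 0.82 in the GFP, 1.21 in the BCL2L11 and 1.18 in the TRIM9 pair. Over the scalings named above this gap ranged from 0.93 to 1.26, although the sign of a single class could change: genes of 1000 to 2000 nt had a median of 0.00 on TPM, and those of 2000 to 4000 nt fell below 0 with the other 3.

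**Figure D1:**
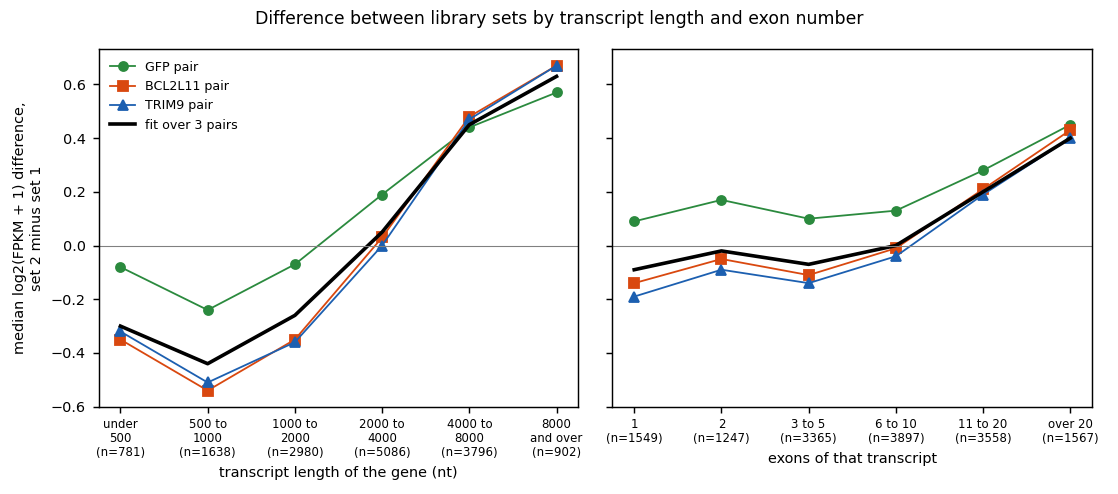
Median log2(FPKM + 1) difference, set 2 minus set 1, for genes grouped by the length (left) and the exon number (right) of their transcript of highest mean FPKM, per plasmid pair (points) and in the fit (black line), with the number of genes under each class. All 3 pairs climb from 500 to 1000 nt to the longest class, the GFP pair by 0.82 and the others by 1.21 and 1.18.

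Exon number showed a smaller gradient. Genes with 1 exon had a median of -0.09, those with 6 to 10 exons 0.00, those with 11 to 20 exons 0.20 and those with over 20 exons 0.40. Within a length class the gradient over exon number was small or ran the other way. Among genes of 4000 to 8000 nt the medians lay between 0.36 for 97 single-exon genes and 0.49 for 1221 genes of 11 to 20 exons. Among those of 1000 to 2000 nt they lay between -0.06 with 1 exon and -0.34 with 6 to 10. Across genes, which are not independent replicates, the difference correlated with log2 length at Pearson's r of 0.36, 0.48 and 0.43 in the GFP, BCL2L11 and TRIM9 pairs and with exon number at 0.18, 0.24 and 0.21.

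Abundance moved with the difference too. The median was 0.12 for genes under 5 FPKM and -0.55 for 615 genes at 100 FPKM and over, of which 268 were lower. The length gradient was present within each level, though at the highest level only up to 4000 nt. Among genes under 5 FPKM the medians were -0.19 for 500 to 1000 nt and 0.61 for 8000 nt and over. Among genes of 20 to 100 FPKM they were -0.72 and 0.65. At 100 FPKM and over they were -0.84 for 500 to 1000 nt and -0.11 for 2000 to 4000 nt, and longer classes held too few genes. Within 500 to 1000 nt the median thus also fell with level, from -0.19 to -0.84. Within single genes length made little difference. In 3569 genes whose longest tested transcript was at least 2 times as long as the shortest, the longest had a log2 difference 0.05 above that of the shortest at the median and was above it in 52.6% of genes. The transcript levels are StringTie's division of shared reads, whose error is not known here.

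Summed over all transcripts but those of the trigger genes BCL2L11 and TRIM9, the 2 sets did not overlap in length make-up. The shares of FPKM below leave out these genes as well. The mean transcript length weighted by FPKM was 1784, 1611 and 1682 nt in the GFP, BCL2L11 and TRIM9 libraries of set 1 and 2129, 2100 and 2082 nt in those of set 2. Transcripts of 4000 nt or more held 8.42%, 6.66% and 7.08% of FPKM in set 1 and 13.2%, 12.9% and 12.6% in set 2. Those under 1000 nt held 39.3%, 44.7% and 40.7% against 32.4%, 33.6% and 33.9%. Ribosomal protein genes held 26.2%, 27.5% and 26.6% of FPKM in set 1 and 16.8%, 18.1% and 19.1% in set 2. The protein-coding genes of the mitochondrial genome went from 4.62%, 5.48% and 6.43% to 7.76%, 7.92% and 8.87%. Genes at 1 FPKM or more numbered 13830 to 13982 in set 1 and 14156 to 14598 in set 2. Each of these 6 measures reached p = 0.1 in an exact two-sided permutation test of 3 against 3 libraries, the smallest p that design allows, and 0.156 adjusted over 14 measures. Replication-dependent histones, whose main messenger RNAs have no poly-A tail, held 0.0651% ± 0.0184 (SD, n = 3) of FPKM in set 1 and 0.0658% ± 0.0182 in set 2 (exact permutation p = 0.9 in the same design). Their summed level fell in each pair, from 365 to 319 FPKM with GFP, from 333 to 252 with BCL2L11 and from 226 to 179 with TRIM9, alongside the sum of all FPKM, which was lower in every set 2 library.

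**Figure D2:**
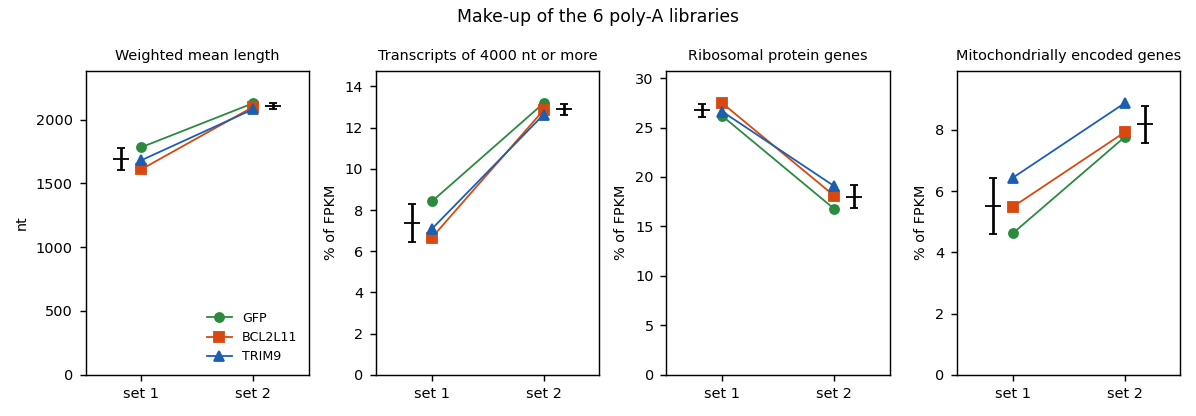
Values of the 6 libraries for the FPKM-weighted mean transcript length (nt) and for shares of FPKM (percent). The shares are those of transcripts of 4000 nt or more, of ribosomal protein genes and of mitochondrially encoded protein-coding genes. Lines join the libraries of 1 plasmid and black bars give the mean ± SD of each set, and in each panel the sets do not overlap.

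To describe genes apart from the length gradient, the fit was repeated after subtracting, in each library, the median of each length class. This setting was added after the data had been seen. It called 1227 genes higher (8.08%) and 1248 lower (8.22%), and of the 30 genes of largest difference named by rule (15 in each direction) 25 were still called.

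IRS4, an adaptor protein of insulin and growth factor signalling that is strongly expressed in this line, had the largest rise among the 15 on the log2(FPKM + 1) scale, although MFAP3 (8.48-fold) and IGF2BP3 (6.48-fold) exceeded it on mean FPKM. Its levels were 8.61, 9.46 and 16.0 FPKM in the GFP, BCL2L11 and TRIM9 libraries of set 1 and 65.9, 65.4 and 80.3 FPKM in set 2. Every set 2 library was above every set 1 library by a wide margin (6.21-fold on mean FPKM, log2 difference 2.58, SE 0.16, adjusted p = 0.0111 in limma, and 2.46 after length centring, adjusted p = 0.00789). IRS4 is a single-exon gene on the minus strand of chrX:108732482-108736409 (hg38). A neighbour on the same strand, AL035425.4 at chrX:108725886-108726948, was looked up after the values were seen. It had 0.463, 0.258 and 1.74 FPKM in set 1 and 26.2, 27.3 and 36.1 FPKM in set 2 (log2 difference 4.16, SE 0.18, adjusted p = 0.0111 in limma). Of other genes there, AL035425.2 rose by 1.38 and AL035425.1 by 0.56 (adjusted p = 0.0111 and 0.0344 in limma). These lie at chrX:108722070-108732687 and chrX:108736011-108739223, so each overlaps an end of IRS4, and AL035425.2 spans AL035425.4. Shared reads could thus enter their values. AL035425.3, a single-exon RNA of 4996 nt, rose by 0.62 (adjusted p = 0.0489), and this call was lost after length centring (0.13, adjusted p = 0.642). The collagen genes COL4A5 and COL4A6 were not called (0.43 and 0.24, adjusted p = 0.112 and 0.273). The locus thus held a rise that was large over IRS4 and AL035425.4 and smaller at the other genes looked up.

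MFAP3, which encodes a microfibril-associated membrane protein, had 1.06, 1.11 and 1.34 FPKM in set 1 and 9.89, 10.1 and 9.73 FPKM in set 2. The libraries within each set were close together (log2 difference 2.33, SE 0.14, adjusted p = 0.0111 in limma). IGF2BP3, an RNA-binding protein that stabilises messenger RNAs, went from 2.33, 1.36 and 2.29 FPKM to 12.6, 11.6 and 14.5 FPKM (log2 difference 2.23, SE 0.14, adjusted p = 0.0111). Its paralogs IGF2BP1 and IGF2BP2, looked up after the values were seen, were not called, with log2 differences of 0.38 (22.4, 21.2 and 23.6 FPKM in set 1, 32.6, 27.6 and 28.3 in set 2) and 0.34. HOXA6, a homeobox transcription factor of the HOXA cluster, had 1.77, 2.99 and 5.09 FPKM in set 1 and 15.2, 14.1 and 13.1 FPKM in set 2 (log2 difference 1.89, SE 0.26, adjusted p = 0.0112). HOXA3, HOXA4, HOXA5, HOXA7, HOXA9 and HOXA10 of the same cluster, also looked up later, had differences of 0.49, -0.08, -0.14, 0.48, 0.35 and 0.09, none of them called. The test of whether HOXA6 differed from its neighbours was not run.

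Most other genes of the 15 that rose have long transcripts. NUP160, a scaffold subunit of the nuclear pore, went from 9.56, 7.88 and 7.65 FPKM to 31.6, 30.3 and 31.7 FPKM, and BTAF1, a regulator of TATA-binding protein, from 7.85, 5.35 and 5.29 to 24.1, 22.4 and 26.4 FPKM. Both were still called after length centring (1.29 and 1.34). DYRK1A, a protein kinase of neural development, and FRS2, an adaptor of fibroblast growth factor receptors, rose by 1.72 and 1.67 (adjusted p = 0.0111 in limma). DENND4C rose by 1.82 and FCF1, a factor of ribosome assembly, by 1.68. FCF1 and URGCP-MRPS24 are exceptions in length, with transcripts of 794 and 795 nt. ZC3H11A, HLTF and SPIN1 were uneven within set 1: ZC3H11A had 20.4, 1.22 and 5.53 FPKM there and 29.4, 30.4 and 27.0 in set 2. Those 3 and TSIX were no longer called after length centring (adjusted p = 0.0825, 0.0668, 0.0947 and 0.0717). URGCP-MRPS24, a read-through transcript of neighbouring genes whose reads it shares, had overlapping sets, 0.0, 0.86 and 5.73 FPKM against 3.93, 8.29 and 15.8.

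Among the genes that fell, several had a TRIM9 library in set 1 well below the other libraries of that set. TOMM7, a small subunit of the mitochondrial import channel, had 105, 160 and 75.5 FPKM in set 1 and 28.7, 28.7 and 28.3 FPKM in set 2, and the sets did not overlap (log2 difference -1.89, SE 0.22, adjusted p = 0.0111 in limma). SARNP, a protein of messenger RNA export, had 73.3, 79.9 and 14.8 FPKM in set 1 and 13.8, 10.4 and 4.55 FPKM in set 2. Here the lowest value of set 1 was close to the highest of set 2 (log2 difference -2.22, SE 0.26). BOLA2B and BOLA2, copies of 1 gene of iron-sulphur transfer in a duplicated region of chromosome 16, fell by 2.33 and 2.00 on the log2 scale, and since their reads can be split between the copies each value is uncertain. NDUFB1, a respiratory chain subunit, had 120, 119 and 31.5 FPKM in set 1 and 15.6, 21.2 and 19.5 FPKM in set 2. SEC61G, a subunit of the protein translocation channel, had 541, 324 and 125 FPKM and then 79.3, 90.8 and 76.9 FPKM. MND1, a meiotic recombination factor, fell by 1.82 and C11orf98 by 2.27 on the log2 scale. The pseudogenes GPX1P1, RPL41P5 and RPL41P1 were also among the 15, and they share sequence with their parent genes. RPL41P1 had 265, 1397 and 281 FPKM in set 1 and 136, 124 and 129 FPKM in set 2, and it was not called after length centring (-1.70, adjusted p = 0.052 in limma). SNORD104 and MT-TT, at 70 and 66 nt, are shorter than the fragments such libraries are usually built from, so their FPKM rests on few bases.

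**Figure D3:**
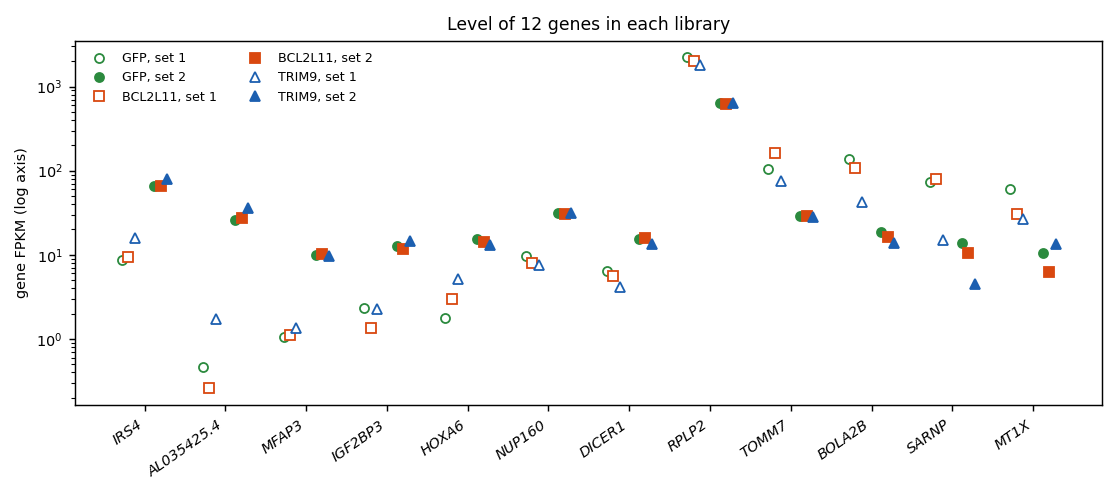
FPKM (log axis) of 12 genes in each of the 6 libraries, with open symbols for set 1 and filled symbols for set 2. IRS4, AL035425.4, MFAP3, IGF2BP3, HOXA6, NUP160 and DICER1 are higher in every set 2 library, and RPLP2, TOMM7, BOLA2B, SARNP and MT1X are lower in every one.

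Ribosomal proteins, the structural subunits of the cytosolic ribosome, were lower as a group: 63 of 79 genes fell and 0 rose, where 10.3% of all genes fell, and the median log2 difference was -0.85. Their median transcript length was 781 nt. Of all genes of 500 to 1000 nt at 100 FPKM and over, 141 of 207 fell, with a median of -0.84. Whether the list differed from genes of like length and level was not tested. RPLP2, a stalk protein of the large subunit, had 2227, 2039 and 1803 FPKM in set 1 and 643, 615 and 641 FPKM in set 2. Set 1 stood 3.2-fold above set 2 on mean FPKM (log2 difference -1.67, SE 0.15, adjusted p = 0.0111 in limma). RPL35, RPL18 and RPS15 fell by 1.5, 1.40 and 1.40 on the log2 scale. RPS14 differed least (-0.01, adjusted p = 0.988). The median was -0.80, -1.04 and -0.77 in the GFP, BCL2L11 and TRIM9 pairs. It stayed below 0 under every scaling, at -1.06 after median centring, -0.53 on TPM and -0.24 after quantile normalisation, where 11 genes fell. After length centring 24 of 79 still fell, with a median of -0.58. That centring does not take out level: all genes at 100 FPKM and over then had a median of -0.37. Without the TRIM9 pair 25 fell, without the BCL2L11 pair 36 and without the GFP pair 71. Many ribosomal protein genes have processed pseudogenes that can take some of their reads.

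Nuclear genes for the respiratory chain and ATP synthase also fell, 39 of 76 with 0 rising and a median of -0.75. Their median transcript length was 788 nt. Of all genes of 500 to 1000 nt, 148 of 267 at 20 to 100 FPKM and 141 of 207 at 100 FPKM and over fell. The medians of those genes were -0.72 and -0.84. NDUFB2, a complex I subunit, had 218, 256 and 216 FPKM in set 1 and 91.3, 98.2 and 87.5 FPKM in set 2 (log2 difference -1.30, SE 0.13, adjusted p = 0.0111 in limma). NDUFB9 and NDUFS8 of complex I fell by 1.26 and 1.18, and ATP5MC1 of ATP synthase by 1.09. After length centring 28 fell and 2 rose, and without the GFP, BCL2L11 and TRIM9 pair 62, 18 and 20 fell. Proteasome subunits were lower as well, with 16 of 32 lower, 0 higher and a median of -0.56. Their median transcript length was 1541 nt. Of all genes of 1000 to 2000 nt at 100 FPKM and over, 86 of 203 fell, with a median of -0.53. PSMB6, a catalytic subunit, had 211, 218 and 177 FPKM in set 1 and 87.8, 86.4 and 72.3 FPKM in set 2, and the sets did not overlap. After length centring 8 proteasome genes fell, and without the BCL2L11 or the TRIM9 pair 3 or 4 fell.

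Host genes of small nucleolar RNAs, which carry these RNAs in their introns, had 12 of 24 lower and 1 higher, with a median of -0.59. GAS5 had 572, 458 and 437 FPKM in set 1 and 274, 247 and 258 FPKM in set 2 (log2 difference -0.90, SE 0.14, adjusted p = 0.0125 in limma). SNHG8, SNHG5 and SNHG11 fell by 1.68, 0.97 and 1.04. The one that rose, SNHG4 (0.88, adjusted p = 0.0127), has a transcript of 2383 nt, while the others just named are of 327 to 880 nt. After length centring 5 fell and 1 rose, and without the BCL2L11 or the TRIM9 pair 5 or 4 fell.

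The protein-coding genes of the mitochondrial genome, which include core subunits of the same respiratory chain, had a positive median. Of these 13 genes 2 rose and 0 fell, with a median of 0.40 (0.69, 0.21 and 0.19 in the GFP, BCL2L11 and TRIM9 pairs). All 37 tested genes of the mitochondrial chromosome, with a median transcript length of 71 nt, went the other way. Their median was -0.24 (0.45, -0.51 and -0.31 in the same pairs), with 3 higher and 6 lower. MT-ND4L, a complex I subunit, had 659, 570 and 485 FPKM in set 1 and 1239, 1161 and 1241 FPKM in set 2 (log2 difference 1.10, SE 0.16, adjusted p = 0.0115 in limma). MT-CO1, the catalytic subunit of cytochrome oxidase, had 3146, 3435 and 3826 and then 5047, 4818 and 5824 FPKM (0.59, adjusted p = 0.0348). MT-ATP8 and MT-ND5 were not called (0.62 and 0.52, adjusted p = 0.0551 and 0.0809). After length centring 6 of the 13 rose, since most are short, and without the TRIM9 pair 0 were called. Without the GFP pair 1 rose and 2 fell, and after TMM rescaling or median centring 1 rose and 1 fell. The difference from the nuclear respiratory chain genes was not tested. MTND2P28, a nuclear copy of a mitochondrial gene whose reads can be exchanged with it, went from 50.9, 45.1 and 65.3 FPKM to 145, 148 and 164 FPKM.

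Genes of G2 and mitosis were higher: 17 of 28 rose, against 22.5% of all genes, and 2 fell, with a median of 0.61. TOP2A, the topoisomerase that untangles sister chromatids, had 40.4, 32.7 and 33.9 FPKM in set 1 and 83.7, 84.3 and 97.6 FPKM in set 2 (log2 difference 1.29, SE 0.15, adjusted p = 0.0111 in limma). ANLN and ECT2, factors of cytokinesis, rose by 1.23 and 1.03, and HMMR, a spindle protein, by 0.93. Not every member rose. The 2 that fell were UBE2C and BIRC5, a ubiquitin-conjugating enzyme and a survival factor of mitosis (-0.68 and -0.70, adjusted p = 0.0169 and 0.0167), and CCNB1, the cyclin that drives entry into mitosis, was not called (126, 105 and 110 FPKM against 104, 102 and 118, log2 difference -0.07). These last 3 were picked after their values were seen, and their transcripts are of 777, 2574 and 2029 nt against 5695 nt for TOP2A. After length centring 4 of 28 rose and 1 fell. Without the GFP pair 17 rose and 4 fell, and without the BCL2L11 or the TRIM9 pair 3 rose in each case and 0 fell.

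Genes of S phase and replication licensing showed both directions, with 8 of 42 higher, 4 lower and a median of -0.04. CCNE2, a cyclin of S phase entry, had 1.59, 1.53 and 1.49 FPKM in set 1 and 4.63, 5.48 and 5.47 FPKM in set 2 (log2 difference 1.28, adjusted p = 0.0111 in limma, 1.16 after length centring). MCM10 and POLA1, of replication initiation, rose by 0.90 and 0.75, and neither was called after length centring (0.40 and 0.26, adjusted p = 0.101 and 0.223 in limma). Thymidine kinase TK1, also picked later, fell by 0.77 (adjusted p = 0.0273). The counts turned with the setting, to 2 higher and 7 lower after length centring, 4 and 16 after median centring and 15 and 0 on TPM. Without the GFP pair they were 12 and 13. The sign of this list's median changed with TPM, quantile normalisation and length centring (0.28, 0.12 and 0.01).

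Factors of the microRNA pathway bear on what the plasmids were built for, since the triggers act on microRNAs bound to Argonaute proteins. Of 20 factors 9 rose and 1 fell, with a median of 0.42. DICER1, which cuts precursor hairpins, had 6.37, 5.56 and 4.16 FPKM in set 1 and 15.6, 15.9 and 13.5 FPKM in set 2 (2.8-fold on mean FPKM, log2 difference 1.34, SE 0.14, adjusted p = 0.0111 in limma). TUT7, a uridylyltransferase, rose by 1.10 and TNRC6A, an effector of silencing, by 1.01. AGO2, named after its values were seen, went from 5.04, 3.11 and 3.75 FPKM to 9.49, 7.74 and 6.54 FPKM (0.85, adjusted p = 0.014). ELOB, a subunit of ubiquitin ligases with a transcript of 997 nt, fell by 0.99. ZSWIM8, the substrate receptor of the ligase that acts in target-directed microRNA decay, was not called (0.08, adjusted p = 0.8), and neither was DROSHA (0.24, adjusted p = 0.196). Without the BCL2L11 or the TRIM9 pair 5 or 6 rose. After length centring 2 rose and 2 fell with a median of 0.03. DICER1 and TUT7 were then still called (0.72 and 0.61, adjusted p = 0.029 and 0.042) and TNRC6A was not (0.38, adjusted p = 0.105).

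**Figure D4:**
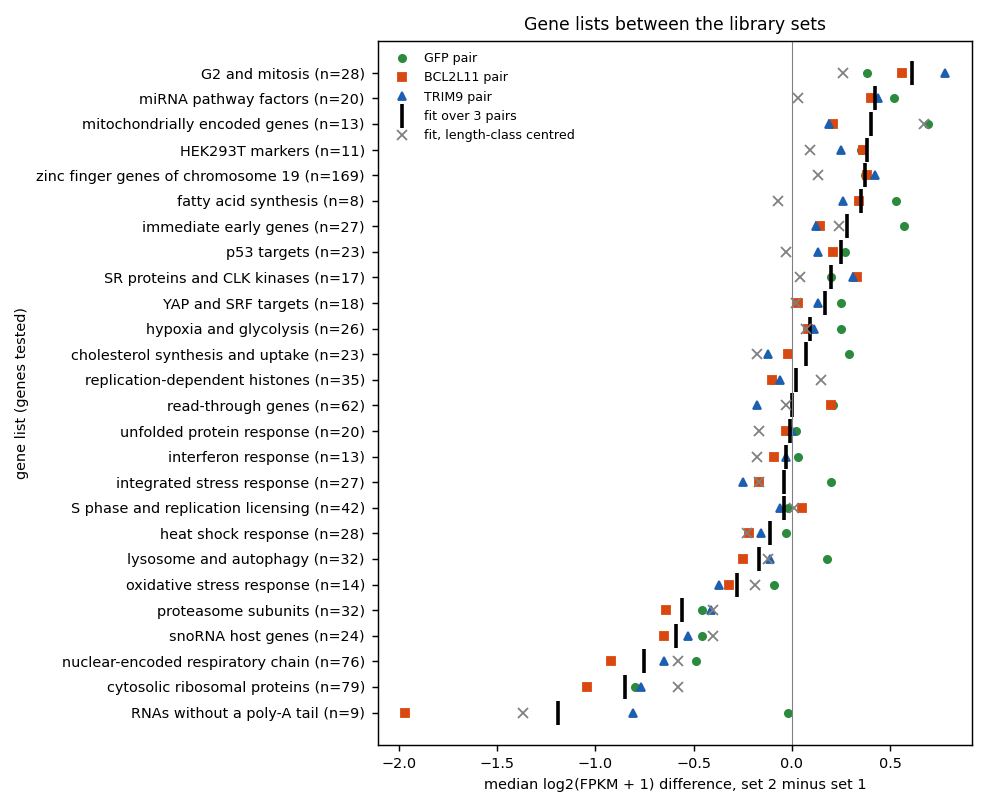
Median log2(FPKM + 1) difference, set 2 minus set 1, of the gene lists with at least 8 genes tested, per plasmid pair (coloured points), in the fit (black bars) and in the fit after length-class centring (grey crosses). RNAs without a poly-A tail (-1.19), ribosomal proteins (-0.85) and respiratory chain genes (-0.75) lie far to the left, and G2 and mitosis genes (0.61) lie at the right end.

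Zinc finger genes of chromosome 19, a large family of mostly repressive transcription factors that lie in clusters, rose in 55 of 169 cases and fell in 3, with a median of 0.37. ZNF714 had 2.2, 1.36 and 2.29 FPKM in set 1 and 7.83, 8.12 and 8.13 FPKM in set 2 (log2 difference 1.63, SE 0.16, adjusted p = 0.0111 in limma). ZNF724, ZNF382 and ZNF460 rose by 1.27, 1.26 and 1.19. After length centring 13 rose and 3 fell, and without the TRIM9 pair 14 rose and 0 fell. The other 791 genes of that chromosome moved the opposite way, with 20 higher, 135 lower and a median of -0.33. Their median transcript length was 2004 nt and their median level 8.58 FPKM, against 3886 nt and 2.11 FPKM for the zinc finger genes. Within 4000 to 8000 nt 34 of 68 zinc finger genes (50%) rose and 0 fell, and 9 of 104 other genes (8.7%) rose and 4 fell, with medians of 0.52 and 0.00. Of all genes of that length 44.7% rose, with a median of 0.45. In this class the zinc finger genes thus lay near the rest and the other genes of the chromosome lay below it. Within 2000 to 4000 nt 15 of 67 zinc finger genes (22.4%) rose, with a median of 0.30. Of 281 other genes of the chromosome 5 (1.8%) rose there, with a median of -0.20. Of all genes of 2000 to 4000 nt 17.1% rose, with a median of 0.05, so there the zinc finger genes lay above the rest. The medians of the other genes of this chromosome differed between pairs, at 0.11 for GFP, -0.42 for BCL2L11 and -0.65 for TRIM9, whereas those of the zinc finger genes were 0.37, 0.38 and 0.42.

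Median differences also varied between chromosomes. The highest medians were those of chromosomes 4, 13 and 18 (0.41, 0.39 and 0.34) and the lowest of those with over 100 genes were those of 19, 22 and 16 (-0.23, -0.16 and -0.14). After length centring chromosomes 4 and 13 were at 0.20 each and 16, 19 and 22 at -0.25, -0.24 and -0.23. The spread was narrower in the GFP pair, 0.11 to 0.34, than in the TRIM9 pair, -0.54 to 0.47. Base composition differs between chromosomes and was not measured here, so its part in the result was not tested.

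**Figure D5:**
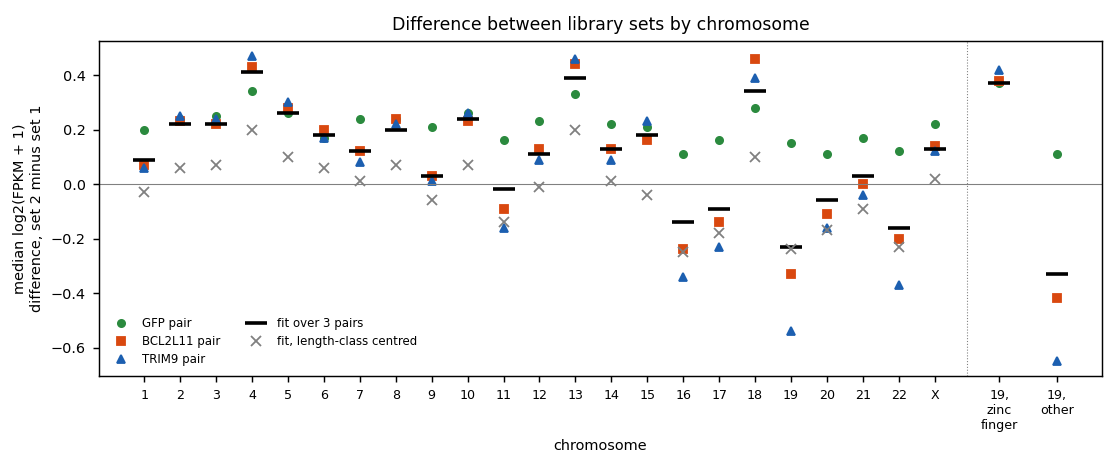
Median log2(FPKM + 1) difference, set 2 minus set 1, of the tested genes of each chromosome, per plasmid pair (coloured points), in the fit (black bars) and after length-class centring (grey crosses), and to the right of the dotted line the zinc finger and the other genes of chromosome 19. Chromosomes 4 and 13 are highest, and on chromosome 19 the zinc finger genes (0.37) and the other genes (-0.33) lie on opposite sides of 0.

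Several stress and signalling lists showed calls in both directions. Of 28 heat shock genes 3 rose and 1 fell, with a median of -0.11 that was 0.21 on TPM and 0.27 after quantile normalisation. The counts turned too, to 3 higher and 8 lower after median centring, 5 and 0 on TPM and 5 and 10 without the GFP pair. DNAJB4, a co-chaperone, had 9.3, 7.47 and 6.49 FPKM in set 1 and 18.4, 18.1 and 16.9 FPKM in set 2 (log2 difference 1.11, SE 0.14, adjusted p = 0.0111 in limma), and HSPA4L and CHORDC1 rose by 0.91 and 0.73. Heat shock promoters carry binding sites of the factor HSF1. The letters GAANNTTC, which read the same on both strands, were searched in 300 bases around the start of each gene (250 before, 50 after; RefSeq, GRCh38.p14). They were present in 1 of the 3 heat shock genes that rose, CHORDC1, in 9 of the 22 with a promoter that were not called, and in 6.9% of 27305 promoters. The stretches below, on the strand of each gene, show 1 match per promoter in capitals. Before the start site CHORDC1 had 3 matches, HSPA8 2 and DNAJA1 1, and the CHORDC1 stretch holds a further match in lower case. Promoters with these letters thus belonged to a gene that was called on FPKM as deposited and to genes that were not. CHORDC1 and HSPA4L were not called after length centring (0.61 and 0.29, adjusted p = 0.0513 and 0.186 in limma), where 1 heat shock gene rose and 1 fell.
CHORDC1 (chr11:90223081-90223110, minus strand): ggaaaattcgcGAAGGTTCctgaaacgcaa
HSPA8 (chr11:123062168-123062197, minus strand): ggccccttctgGAAGGTTCtaagatagggt
DNAJA1 (chr9:33025064-33025093, plus strand): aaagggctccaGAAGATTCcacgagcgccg
CHORDC1, a co-chaperone of HSP90, had 23.4, 15.3 and 12.9 FPKM in set 1 and 33.7, 27.7 and 24.4 FPKM in set 2. HSPA8, the constitutive HSP70, had 834, 750 and 723 FPKM against 726, 771 and 766 (log2 difference -0.03, adjusted p = 0.91), and DNAJA1, a co-chaperone, 211, 178 and 147 FPKM against 176, 167 and 145 (-0.12, adjusted p = 0.517). Both were chosen after their values were seen.

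Of 27 immediate early genes 4 rose and 0 fell (median 0.28), led by the RNA-binding regulator ZFP36L2 with a rise of 0.94 and by ZFP36L1, KLF6 and KLF10 with 0.70, 0.78 and 0.71. After length centring 3 rose, and without the BCL2L11 pair 0 were called. The integrated stress response had 4 of 27 higher and 2 lower: the cystine transporter SLC7A11 rose by 1.07 and ALDH1L2 by 1.10, while PHGDH of serine synthesis and the transcription factor DDIT3 fell by 0.73 and 0.53. For that list median centring gave 2 higher and 9 lower, length centring 1 and 2, and leaving out the GFP pair 5 and 9. The unfolded protein response had 3 of 20 higher, among them SEL1L (1.22) and EDEM1 (0.92) of protein disposal, and 4 lower, among them SEC61B and CRELD2, and after length centring 2 rose and 1 fell. Of 13 interferon response genes 2 rose and 1 fell. ISG15, a ubiquitin-like protein, had 18.0, 18.4 and 13.3 FPKM in set 1 and 5.79, 7.46 and 4.61 FPKM in set 2 (log2 difference -1.34, SE 0.14, adjusted p = 0.0111 in limma). IFIT5 of the same list rose by 0.59. NF-kB targets had 2 of 5 higher, NFKB1 and TNFAIP3. None of these 3 was called after length centring (0.09, 0.03 and 0.06, adjusted p = 0.65, 0.909 and 0.773 in limma), and no NF-kB target was called with TMM.

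Of 23 p53 targets 7 rose and 2 fell, with a median of 0.25. RRM2B, a ribonucleotide reductase subunit, FAS, a death receptor, ZMAT3 and MDM2, the ligase that restrains p53, rose by 1.0, 0.82, 0.74 and 0.72. CDKN1A, the inhibitor through which p53 arrests the cycle, named after its value was seen, was not called (-0.26, adjusted p = 0.285). After length centring 1 of the 23 was called, FAS (0.70, adjusted p = 0.0384), and the list's median was -0.03. Without the GFP pair 9 rose and 9 fell. The large T antigen of this line binds p53.

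Lipid and metal genes were mixed. Cholesterol synthesis and uptake had 7 of 23 higher and 6 lower. SC5D, a late enzyme of the pathway, and STARD4, a sterol carrier, rose by 1.03 and 1.0, and PMVK and EBP fell by 1.37 and 1.0. The transcripts of the first 2 are of 6854 and 4631 nt and those of the others of 1002 and 1125 nt. After length centring SC5D and STARD4 were not called (0.53 and 0.50, adjusted p = 0.0555 and 0.0711 in limma), PMVK and EBP were, and the list had 2 higher and 3 lower. All 3 called genes among 8 of fatty acid synthesis rose, SCD by 0.66, ACLY by 0.57 and ELOVL6 by 0.55. None of the 3 was called after length centring, where 0 genes of that list rose and 1 fell. The metal-binding MT1X had 60.9, 30.8 and 26.3 FPKM in set 1 and 10.6, 6.29 and 13.6 FPKM in set 2, and the sets did not overlap (log2 difference -1.82, SE 0.30, adjusted p = 0.0132 in limma). MT2A fell by 1.39 and the zinc exporter SLC30A1 rose by 1.20, and all 3 kept their calls after length centring.

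Of the remaining lists, lysosome and autophagy genes had 5 of 32 higher, among them LAMP2 (0.93), and 1 lower, NPC2 (-0.82). Neither LAMP2 nor NPC2 was called after length centring (0.43 and -0.54, adjusted p = 0.0815 and 0.0559 in limma). Without the GFP pair 7 genes of that list rose and 10 fell. Hypoxia and glycolysis genes had 5 of 26 higher and 2 lower, YAP and SRF targets 4 of 18 higher and 0 lower, and the oxidative stress response 3 of 14 higher and 4 lower. These counts turned with the scaling: after median centring they were 3 and 6 for lysosome and autophagy, 2 and 5 for hypoxia and glycolysis, 2 and 6 for YAP and SRF targets and 3 and 7 for oxidative stress, and on TPM 8 and 1, 9 and 0, 8 and 0 and 4 and 1. After length centring they were 0 and 2, 0 and 0, 0 and 1 and 1 and 2, in the same order. SR proteins and CLK kinases, which control splicing, had 5 of 17 higher, led by SRSF11 (1.02), and 1 lower. Read-through genes had 9 of 62 higher and 5 lower, and replication-dependent histones 2 of 35 higher and 3 lower. After median centring these were 7 and 12 and 2 and 9, and on TPM 16 and 2 and 7 and 1. After length centring they were 10 and 6 and 3 and 1. Of 9 RNAs without a poly-A tail 0 rose and 2 fell, with a median of -1.19 that was -0.02, -1.97 and -0.81 in the GFP, BCL2L11 and TRIM9 pairs. RN7SK, a nuclear RNA that holds a transcription elongation factor, had 202, 182 and 16.6 FPKM in set 1 and 70.0, 42.0 and 7.11 FPKM in set 2 (log2 difference -1.57, SE 0.21, adjusted p = 0.0112 in limma), so the TRIM9 library was lowest in both sets. Beside IRS4, the HEK293T markers LIN28B and CDH2 rose (1.21 and 0.58) and BEX1 fell by 0.78. After length centring LIN28B was still called (0.71, adjusted p = 0.0334 in limma). CDH2 and BEX1 were not (0.09 and -0.49, adjusted p = 0.696 and 0.091 in limma). In every list the members' share of calls on FPKM as deposited stands against 22.5% higher and 10.3% lower among all genes. Counts in another setting stand against all genes in that setting. Of 15183 genes, 5469 were higher and 681 lower on TPM, 2098 and 3448 after median centring and 1227 and 1248 after length centring. Without the GFP pair 4438 and 3786 of 14580 were called. Without the BCL2L11 pair 1220 and 475 of 14659 were called, and without the TRIM9 pair 1118 and 389 of 14578.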

How the data were processed

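Values came from tables deposited by the authors, 1 per poly-A library (6 in all), which hold for each of 250719 transcripts the exon number, the length, the coverage signal and the FPKM, per the file headers. The submitters' processing notes name hg38 and, without their roles, StringTie 2.1.3, STAR, cutadapt 3.4 and DESeq2 1.20.0. Coverage divided by FPKM gave each library's aligned bases. FPKM was summed per gene, genes at 1 FPKM or more in at least 2 libraries were kept (15183 of 67053, 994 of them off the assembled chromosomes), and log2(FPKM + 1) was fitted in limma 3.58.1 (trend, plasmid and library set, two-sided). With a pseudocount of 1, differences of low genes are understated. Each gene was given the length and exon number of its transcript of highest mean FPKM. Single library values were compared with exact permutation tests. The fit was tested on simulated data.

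The comparison, the gene lists and the members were chosen with earlier results of these data known. By rule the text names the 15 higher and 15 lower called genes of largest difference with a mean of at least 5 FPKM, the same sign in 3 pairs, 1 locus and no clone-based name, and at most 4 members of each list, by p. Settings varied were the scaling (TMM, median, quantile), pseudocount, filter, trend, plasmid term, assembled chromosomes and each library or pair left out; TPM and length-class centring were added after the data were seen. Small RNA libraries were not analysed here. Some genes that the rule names are not reported here.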

Additional observations from a re-analysis of the deposited data

How the results depend on the processing

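Where 3421 genes were higher and 1570 lower, the number higher was 5469 on TPM, 1227 after length-class centring, 2098 after median centring and 0 with no filter, and 1220 and 1118 without the BCL2L11 and the TRIM9 pair. The number lower was 2581 with TMM, 681 on TPM, 3448 after median centring and 0 with no filter, and 475, 3786 and 389 without the BCL2L11, GFP and TRIM9 pair. Leaving out single libraries gave 945 to 4441 higher and 320 to 3751 lower genes. With plasmid as a term a lone library adds nothing to the set difference, so these fits equal those without the pair but for the filter and the trend. The longest class stood 1.43 above the class of 500 to 1000 nt with an FPKM filter of 5 and 1.40 with a pseudocount of 0.1, against 1.07. The 30 named genes, chosen for a large difference with the same sign in 3 pairs, could hardly change sign, and none did in any setting. Of them 28 were still called without the TRIM9 pair and 0 with no filter. Of the 31 lists 15 kept the sign of their median under the 5 other scalings and 16 did not, many of these with medians near 0 on FPKM as deposited. Sign changes included 0.00 for 1000 to 2000 nt on TPM, -0.05 and -0.01 for 11 to 20 exons after length-class and median centring, -0.06 for over 20 exons after length-class centring, 0.21 and 0.27 for heat shock genes on TPM and quantiles, -0.03 for p53 targets with an FPKM filter of 5 and after length-class centring, -0.07 for fatty acid synthesis after length-class centring, -0.06 and -0.05 for YAP and SRF targets with an FPKM filter of 5 and median centring, and -0.01 for SR proteins after median centring. The cause was not tested. Without the plasmid term, which pairs the libraries, 3687 genes were higher and 1881 lower. The files hold FPKM and no counts, so errors of low genes rest on 3 pairs.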
